A study of Rattus norvegicus with 4 samples.

Results

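The EGR genes Egr1, Egr2 and Egr3 and the NR4A genes Nr4a1, Nr4a2 and Nr4a3 are followed here through the cells of rat abdominal midline fascia. They were chosen by symbol, and each had a single row among the 30560 gene rows of the 4 single-cell matrices, so 6 of 30560 genes are described. Dysentery had been induced in all rats with Salmonella, and 2 libraries came from rats that were then given acupuncture while 2 came from dysenteric rats without it. The tissue is labelled subcutaneous fascia, and strain, age and sex are not named in the labels used here. The groups follow the library titles. The treatment field of each library names the opposite group, so every direction below would turn if that field were right.

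EGR proteins are zinc finger transcription factors, and NR4A proteins are orphan nuclear receptors that act without a known physiological ligand. Both families are immediate early genes: their transcription starts within minutes of a growth factor, stretch, cAMP, cytokine or antigen receptor signal, without new protein synthesis. Serum response factor with its ETS partners is a main regulator of EGR genes, and CREB and MEF2 are main regulators of NR4A genes. In connective tissue EGR1 acts in matrix and wound responses, in macrophages NR4A proteins restrain inflammatory genes, and in T cells NR4A and EGR2/EGR3 accompany antigen receptor signalling and later hyporesponsiveness. Enzymatic digestion of tissue also induces both families. Here the fascia was digested in warm collagenase and elastase before loading, and the part of this step in the levels was not tested.

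The promoters are shown because they show which known elements they hold. RefSeq promoter sequences (build GRCr8) were matched for 4 of the 6 members, and the 250 bases before each gene's start are printed 5′ to 3′ on the gene's strand. Only the first listed start of a gene was used, and any other starts were not searched. Capitals mark the CArG box, the serum response factor element, the core TGACG of the cAMP response element, and the EGR elements GCGTGGGCG and GCGGGGGCG, each searched on both strands.
Egr1 (chr18:26736828-26737077, plus strand): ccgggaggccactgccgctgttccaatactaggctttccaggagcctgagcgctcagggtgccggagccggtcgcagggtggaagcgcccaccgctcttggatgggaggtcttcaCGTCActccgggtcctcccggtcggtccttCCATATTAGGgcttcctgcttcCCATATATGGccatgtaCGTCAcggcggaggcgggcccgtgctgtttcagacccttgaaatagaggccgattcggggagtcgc
Egr2 (chr20:21054442-21054691, minus strand): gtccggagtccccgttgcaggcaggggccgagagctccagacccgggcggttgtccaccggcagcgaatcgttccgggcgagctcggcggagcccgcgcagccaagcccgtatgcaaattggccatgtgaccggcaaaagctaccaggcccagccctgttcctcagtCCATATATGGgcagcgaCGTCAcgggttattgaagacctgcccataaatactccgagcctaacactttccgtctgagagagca
Nr4a1 (chr7:134259888-134260137, plus strand): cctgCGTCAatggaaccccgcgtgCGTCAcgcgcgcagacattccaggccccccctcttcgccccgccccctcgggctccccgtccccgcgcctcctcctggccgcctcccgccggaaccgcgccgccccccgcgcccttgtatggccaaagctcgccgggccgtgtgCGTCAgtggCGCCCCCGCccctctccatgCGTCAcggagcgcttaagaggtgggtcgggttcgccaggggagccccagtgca
Nr4a2 (chr3:62104888-62105137, minus strand): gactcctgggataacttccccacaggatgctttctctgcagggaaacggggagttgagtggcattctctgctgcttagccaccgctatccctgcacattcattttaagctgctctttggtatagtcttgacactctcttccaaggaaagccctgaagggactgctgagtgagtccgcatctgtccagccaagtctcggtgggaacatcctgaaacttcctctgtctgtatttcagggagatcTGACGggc
Egr3 and Nr4a3 are named only. The Egr1 window held 2 CArG boxes, which began 105 and 83 bases before the start, and the Egr2 window held 1, which began 83 bases before the start. A CArG box was found in 412 of the 27457 promoters of this length. Neither NR4A window held one. TGACG was found in all 4 windows, with 4 sites in Nr4a1, 2 in Egr1, 1 in Egr2 and 1 in Nr4a2, and in 18.96% of all promoters. The single EGR element was GCGGGGGCG in the Nr4a1 window, beginning 73 bases before the start, and 2.49% of all promoters held that element. The full cAMP response element TGACGTCA, the NR4A element AAAGGTCA and the AP-1 element TGANTCA, searched in the same way, did not occur in these 4 windows (TGACG lies within TGACGTCA, so sites of the second are also sites of the first), against 1.70%, 1.11% and 6.36% of all promoters. These matches describe letters and are not evidence of binding.

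The 4 libraries held 53066666 to 93897006 UMIs (unique molecular identifiers, each standing for a captured transcript) in 7965 to 11327 cells, and 32181 of 38282 cells passed the quality limits. In dysentery replicate 1, 16.0% of cells exceeded the mitochondrial limit, against 5.11% to 7.17% in the rest. Library pairs shared 19 to 32 cell barcodes. Cells were gated by marker genes: a cell joined a class when most of that class's measured markers had a UMI in it and this held for no other class. Cells that passed the T cell-like and NK or innate lymphoid cell-like gates and no other joined the T cell-like class. A class called Cd74-high Ccr2+ Clec10a+ here, whose cells carry the MHC class II chaperone Cd74, the monocyte chemokine receptor Ccr2 and the lectin Clec10a of type 2 dendritic cells, was added after the data were seen. Cells with all of these joined it if they passed no gate or only the macrophage-like or monocyte-like gates. 7 classes had at least 30 cells in every library. They held 15700 fibroblast/telocyte-like, 4920 macrophage-like, 3958 Cd74-high Ccr2+ Clec10a+, 1454 T cell-like, 641 NK or innate lymphoid cell-like, 639 neutrophil-like and 380 vascular endothelial-like cells. Telocytes, interstitial cells with long thin processes, share Cd34 and Pdgfra with fascia fibroblasts, so these form 1 class.

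Levels are CPM, the usual scaling of a gene's UMIs to all UMIs of that class and library. The changes are log2, acupuncture minus dysentery, from edgeR's quasi-likelihood test with Benjamini-Hochberg adjustment over all genes of a class, and are called at an adjusted p under 0.05. Separate animals are not stated for the libraries, and p-values speak only to the spread among these 4 libraries, which may be technical. CPM values are compared between samples and classes, not between genes. Since each value is a sum over a class, more RNA per cell and more cells with the RNA cannot be told apart in it.

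**Figure D1:**
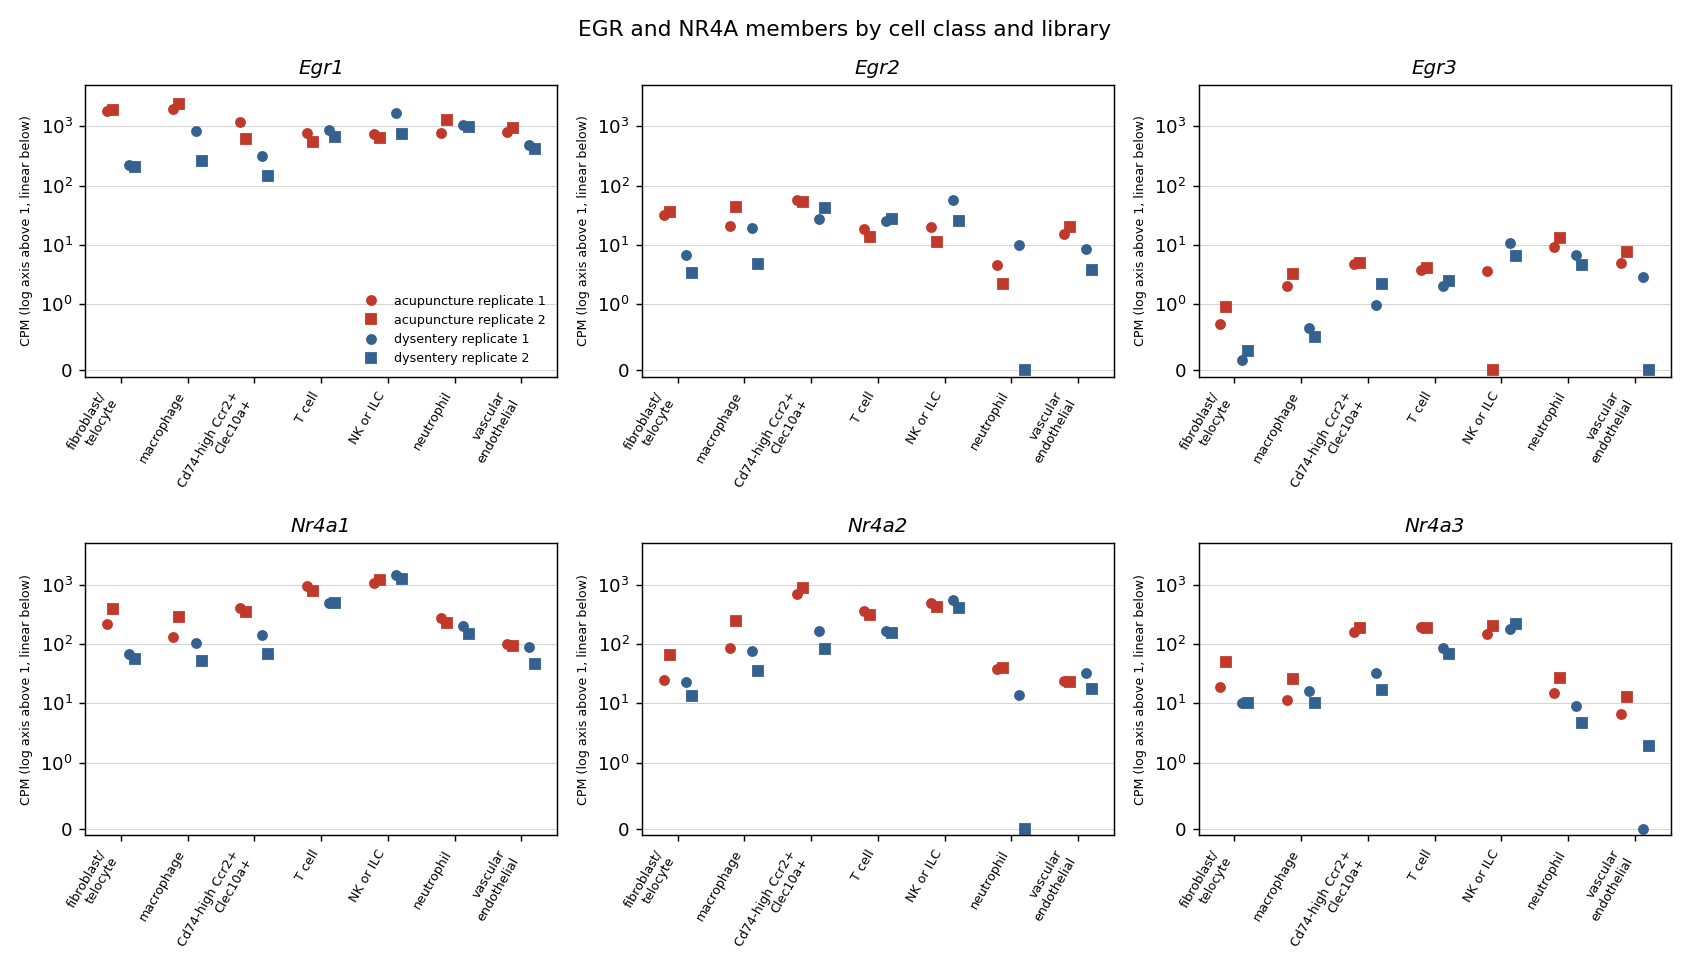
CPM of the 6 members (y axis, log above 1 and linear below) in the 7 cell classes (x axis), with each library as a point: red for acupuncture, blue for dysentery, circles for replicate 1 and squares for replicate 2. Both acupuncture libraries lie above both dysentery libraries for all 6 members in the fibroblast/telocyte-like and Cd74-high Ccr2+ Clec10a+ classes. The same held for 23.8% and 26.7% of all genes tested in these classes.

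In fibroblast/telocyte-like cells the EGR genes carried the called response. Egr1 stood at 1795 and 1890 CPM in acupuncture replicates 1 and 2 and at 227.1 and 207.3 CPM in dysentery replicates 1 and 2. The replicates of each group lay close together and far from the other group, and Egr1 rose 8.61-fold (log2 change 3.11 ± 0.15 SE, n = 2 libraries per group, adjusted p = 0.00538 by edgeR). Egr2, the family member best known from Schwann cell myelination and T cell tolerance, was at 31.5 and 36.0 CPM with acupuncture and at 6.76 and 3.42 CPM without, and it rose by a log2 change of 2.80 ± 0.32 (edgeR adjusted p = 0.0337). Egr3 was near the lower limit, with 21 and 35 UMIs with acupuncture and 3 and 12 without, and its log2 change of 1.82 ± 0.56 did not pass (edgeR adjusted p = 0.197).

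Among the NR4A genes of the same cells, Nr4a1, the receptor also named Nur77, was at 220.4 and 392.7 CPM with acupuncture and at 67.7 and 55.7 CPM without. Its log2 change of 2.36 ± 0.34 missed the threshold (edgeR adjusted p = 0.0540), and DESeq2, an alternative count test, called it. Nr4a2 (Nurr1) was at 24.3 and 64.9 CPM with acupuncture and at 22.5 and 13.3 CPM without, so acupuncture replicate 1 lay just above dysentery replicate 1. Nr4a3 (Nor1) was at 18.8 and 49.7 CPM with acupuncture and at 10.1 and 10.3 CPM without. The log2 changes of Nr4a2 and Nr4a3 were 1.39 ± 0.54 and 1.80 ± 0.50 (edgeR adjusted p = 0.260 and 0.172). Both acupuncture libraries lay above both dysentery libraries for all 6 members. The same held for 23.8% of the genes tested, and 24.6% had both acupuncture libraries below. In this class 2 of 6 members were called higher, against 0.885% of the 13223 genes tested. The median log2 change was 2.09 over the members and -0.0029 over all genes tested. With acupuncture replicate 1 or 2 left out, Egr1 had log2 changes of 3.21 or 2.99 (edgeR adjusted p = 0.0590 or 0.0600) and Egr2 of 2.95 or 2.61 (edgeR adjusted p = 0.136 or 0.206). Neutrophil markers summed to 174.4 and 157.4 CPM in the fibroblast/telocyte-like class with acupuncture and to 503.2 and 460.8 CPM without, and their part in the changes was not tested.

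Macrophage-like cells, gated on complement C1q, Mrc1, Cd163 and related genes, had positive log2 changes for all 6 members, but none passed. Egr1 was at 1931 and 2388 CPM with acupuncture and at 847.9 and 257.3 CPM in dysentery replicates 1 and 2. The dysentery libraries differed more than 3-fold from each other, and the log2 change was 2.13 ± 0.54 (edgeR adjusted p = 0.152). Without dysentery replicate 1 it was 3.25 (edgeR adjusted p = 0.00334), and without dysentery replicate 2 it was 1.51 (edgeR adjusted p = 0.0107). Egr2 was at 21.3 and 43.8 CPM with acupuncture and at 19.7 and 4.84 CPM without, and Egr3 at 2.05 and 3.22 CPM against 0.634 and 0.509 CPM. Nr4a1 was at 132.8 and 279.8 CPM against 103.1 and 50.6 CPM, and Nr4a2 at 85.9 and 246.3 CPM against 76.4 and 34.6 CPM. Dysentery replicate 1 lay close below acupuncture replicate 1 for Egr2, Nr4a1 and Nr4a2. Nr4a3 was the member whose groups overlapped, at 11.2 and 26.0 CPM with acupuncture and 15.9 and 9.92 CPM without. Of all genes tested in this class, 13.3% had both acupuncture libraries above both dysentery libraries.

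In macrophage-like cells edgeR called 0 of 6 members, against 0.357% of genes called higher. At an unadjusted p under 0.05 there were 5 members, and DESeq2 called 0. The share of all genes at that unadjusted limit was not computed. Counts at this limit, here and below, therefore stand without a background. Monocyte markers summed to 64.0 and 45.4 CPM with acupuncture and to 274.0 and 73.3 CPM without, and fibroblast markers to 345.7 and 420.1 against 736.0 and 759.9 CPM. Their part in the changes was not tested.

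In Cd74-high Ccr2+ Clec10a+ cells all 3 NR4A genes and Egr1 were called. Nr4a3 was at 159.3 and 186.4 CPM with acupuncture and at 32.4 and 16.5 CPM without, and it rose by a log2 change of 2.90 ± 0.29 (edgeR adjusted p = 0.00305). Nr4a2 was at 698.8 and 883.0 CPM against 168.5 and 81.7 CPM, a log2 change of 2.70 ± 0.33 (edgeR adjusted p = 0.00550). Nr4a1 rose from 142.4 and 66.7 CPM to 397.9 and 345.6 CPM (log2 change 1.87 ± 0.33, edgeR adjusted p = 0.0195). Both acupuncture libraries lay above both dysentery libraries for these 3 genes.

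Among the EGR genes of this class Egr1 rose from 314.3 and 144.8 CPM to 1193 and 616.4 CPM (log2 change 2.02 ± 0.43, edgeR adjusted p = 0.0366). That call was lost without acupuncture replicate 1 (log2 change 1.47, edgeR adjusted p = 0.0824) and without dysentery replicate 2 (log2 change 1.57, edgeR adjusted p = 0.0609). Egr2 was at 57.4 and 52.7 CPM with acupuncture and at 27.3 and 42.6 CPM without, a log2 change of 0.66 ± 0.21 that did not pass (edgeR adjusted p = 0.107), though it did without dysentery replicate 2 (log2 change 1.05, edgeR adjusted p = 0.0161). Egr3 was at 4.75 and 4.94 CPM against 0.985 and 2.19 CPM (log2 change 1.52 ± 0.38, edgeR adjusted p = 0.0576). Both acupuncture libraries lay above both dysentery libraries for all 6 members. The same held for 26.7% of the 10913 genes tested, and 31.8% had both acupuncture libraries below. Of the 6 members 4 were called higher, against 7.16% of the genes tested. This class had the highest share of called genes of the 7, so a count of 4 stands against a wider background than elsewhere.

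In T cell-like cells the 3 NR4A genes were called and the EGR genes tested were not. Nr4a1 was at 957.8 and 788.1 CPM with acupuncture and at 487.4 and 488.2 CPM without, and rose 1.81-fold (log2 change 0.85 ± 0.12, edgeR adjusted p = 0.00861). Nr4a2 rose from 163.6 and 152.0 CPM to 364.5 and 307.4 CPM (log2 change 1.10 ± 0.13, edgeR adjusted p = 0.00365). Nr4a3 rose from 85.1 and 68.1 CPM to 194.9 and 185.3 CPM (log2 change 1.32 ± 0.15, edgeR adjusted p = 0.00269). All 3 NR4A calls held when any single library was left out.

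Egr1 did not follow in T cell-like cells. It was at 785.8 and 554.9 CPM with acupuncture and at 862.1 and 661.9 CPM without, so the groups overlapped (log2 change -0.17 ± 0.18, edgeR adjusted p = 0.696). Egr2 was lower in both acupuncture libraries, at 18.6 and 13.4 CPM against 25.1 and 27.1 CPM, with a log2 change of -0.69 ± 0.24 that did not pass (edgeR adjusted p = 0.185). Egr3 had 5 to 9 UMIs per library and fell below the filter on low counts. Of the 5 members tested 3 were called higher, against 2.01% of genes. NK markers summed to 1294.0 and 657.9 CPM in this class with acupuncture and to 1682.9 and 1645.6 CPM without, and their part was not tested.

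NK or innate lymphoid cell-like cells had high NR4A levels in both groups and no called member. Nr4a1 was at 1067 and 1190 CPM with acupuncture and at 1463 and 1233 CPM without (log2 change -0.31 ± 0.14, edgeR adjusted p = 0.349). Nr4a2 was at 481.2 and 422.4 CPM against 543.8 and 400.9 CPM, and Nr4a3 at 145.4 and 201.0 CPM against 180.1 and 213.6 CPM. Both overlapped between groups. Egr1 was lower with acupuncture, at 741.6 and 628.9 CPM against 1653 and 757.0 CPM (log2 change -0.87 ± 0.28, edgeR adjusted p = 0.176). Egr2 was at 19.8 and 11.1 CPM against 57.8 and 25.1 CPM (log2 change -1.60 ± 0.46, edgeR adjusted p = 0.137). With dysentery replicate 2 left out, edgeR called Egr1 (log2 change -1.32, adjusted p = 3.53e-10) and Egr2 (log2 change -1.95, adjusted p = 8.52e-05). Without acupuncture replicate 1 it also called both (log2 changes -1.01 and -2.11), and without acupuncture replicate 2 it called Egr1 (log2 change -0.76). Without dysentery replicate 1, the library with the highest levels, the log2 changes were -0.22 for Egr1 and -0.77 for Egr2, and neither was called (edgeR adjusted p = 0.776 and 0.726). Egr3 had 0 to 21 UMIs per library and was filtered. In the full comparison edgeR called 0 of 5 members, against 0.823% of genes called higher, with 3 members at an unadjusted p under 0.05 and 0 called by DESeq2.

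Neutrophil-like cells had no called member. Egr1 was at 776.9 and 1290 CPM with acupuncture and at 1041 and 966.8 CPM without, with overlapping groups (log2 change -0.067 ± 0.30, edgeR adjusted p = 0.959). Nr4a1 was at 269.9 and 230.0 CPM against 202.9 and 146.6 CPM (log2 change 0.41 ± 0.29, edgeR adjusted p = 0.659). Nr4a2 was at 38.6 and 39.4 CPM with acupuncture and at 13.6 CPM in dysentery replicate 1, while dysentery replicate 2 had 0 UMIs among 58 cells (edgeR adjusted p = 0.133). Egr2, Egr3 and Nr4a3 had 0 to 13 UMIs per library and were filtered. edgeR called 0 of 3 members, against 0.101% of genes called higher, with 1 member at an unadjusted p under 0.05 and 0 called by DESeq2.

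In vascular endothelial-like cells Egr1, which responds to shear stress in endothelium, rose from 476.3 and 409.3 CPM to 815.3 and 952.7 CPM (log2 change 0.91 ± 0.18, edgeR adjusted p = 0.0123). With presumed doublets kept, the log2 change was 0.63 (edgeR adjusted p = 0.241). Nr4a1 was at 100.9 and 93.4 CPM against 90.0 and 46.1 CPM (log2 change 0.49 ± 0.28, edgeR adjusted p = 0.473), and Nr4a2 was at 23.5 and 22.6 CPM against 31.9 and 17.3 CPM (log2 change -0.12 ± 0.45, edgeR adjusted p = 0.941). Of 3 members tested 1 was called higher, against 1.14% of genes. Egr2, Egr3 and Nr4a3 had 0 to 19 UMIs per library and were filtered. Mural cell markers summed to 181.6 and 55.9 CPM with acupuncture and to 8.71 and 9.61 CPM without, and median depth was 4247 and 4461 UMIs per cell against 7501 and 6772. The part of both in the Egr1 change was not tested.

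**Figure D2:**
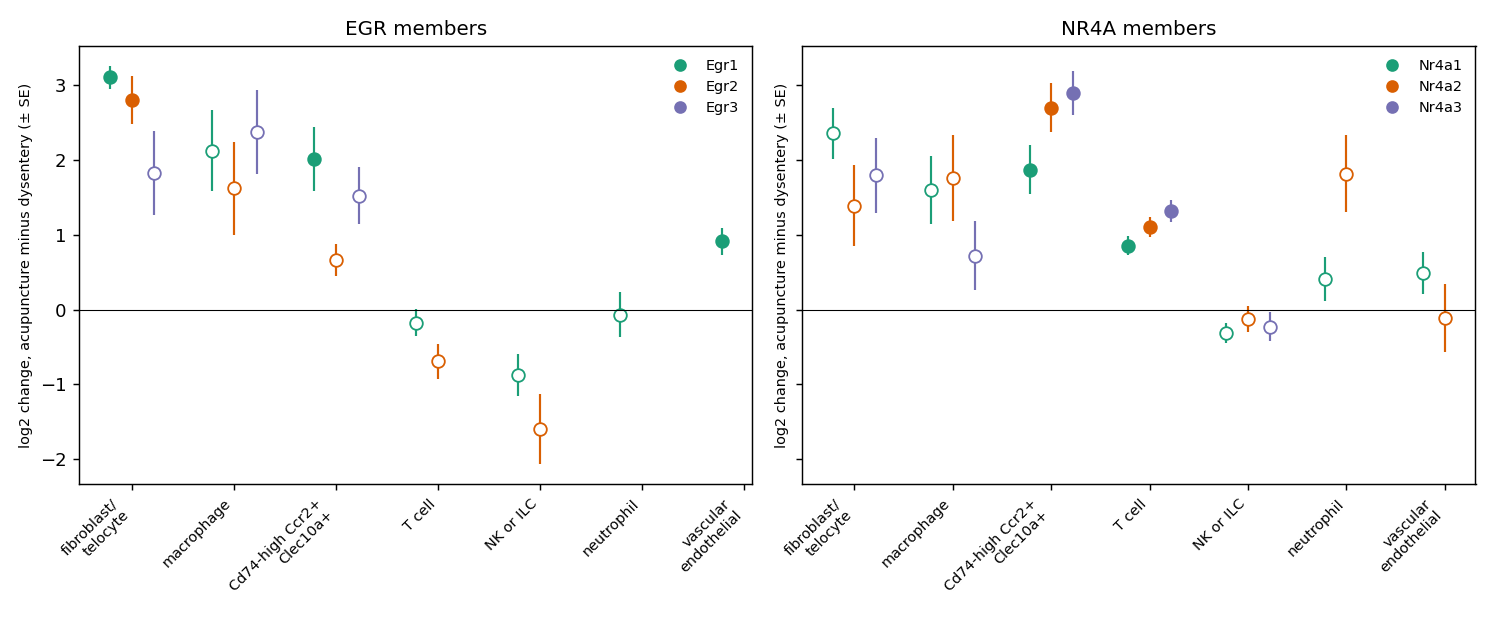
Log2 change of each member between groups (y axis, acupuncture minus dysentery, bars ± SE) in the 7 cell classes (x axis), with filled points for an adjusted p under 0.05 by edgeR and open points otherwise. EGR points fall from 3.11 (Egr1, fibroblast/telocyte-like) to -1.60 (Egr2, NK or innate lymphoid cell-like), and filled NR4A points stand in the Cd74-high Ccr2+ Clec10a+ and T cell-like classes.

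Whether a member's change differed between classes was tested directly, each class against fibroblast/telocyte-like cells of the same libraries (an interaction term in edgeR with library as a block). Of 36 pairs of member and class 8 were called. In T cell-like cells the change of Egr1 was lower by a log2 difference of -3.24 ± 0.48 (adjusted p = 0.00218) and that of Egr2 by -3.48 ± 0.60 (adjusted p = 0.00742), while the differences of Nr4a1, Nr4a2 and Nr4a3 were -1.47 ± 0.43, -0.18 ± 0.49 and -0.28 ± 0.41 and did not pass (edgeR adjusted p = 0.176, 0.958 and 0.878). In that contrast 0.346% of genes were called. In NK or innate lymphoid cell-like cells the difference from the fibroblast/telocyte change was -3.87 ± 0.48 for Egr1, -4.34 ± 0.72 for Egr2, -2.65 ± 0.44 for Nr4a1 and -1.91 ± 0.43 for Nr4a3 (edgeR adjusted p = 0.000311, 0.00384, 0.00384 and 0.0490), against 0.445% of genes called. In neutrophil-like cells Egr1 differed by -2.96 ± 0.48 (edgeR adjusted p = 0.00281), against 0.469% of genes.

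In the Cd74-high Ccr2+ Clec10a+ cells the change of Egr2 was lower than in fibroblast/telocyte-like cells by -2.24 ± 0.49 (edgeR adjusted p = 0.0152), against 1.95% of genes called. The changes of Nr4a2 and Nr4a3 were higher there by 1.43 ± 0.49 and 1.24 ± 0.40, and neither difference passed (edgeR adjusted p = 0.157 and 0.135). In macrophage-like cells and in vascular endothelial-like cells edgeR called 0 of 6 differences each, against 0.947% and 0.0906% of genes. At an unadjusted p under 0.05, macrophage-like cells had 0 such members and vascular endothelial-like cells had Egr1 and Nr4a1. The fibroblast/telocyte-like libraries are shared by these contrasts. Without acupuncture replicate 2, the number of called pairs was 3, without acupuncture replicate 1 it was 4, and without dysentery replicate 2 it was 13.

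The order of the 7 tested classes changed with the group, which is given as a description, and the ranks below hold among these classes only. Some classes with too few cells to test, mast cell-like and dendritic cell-like cells among them, had higher means for some members. With dysentery alone, Egr1 was highest in the NK or innate lymphoid cell-like class (mean 1205 ± 634 CPM, SD, n = 2, overlapping with neutrophil-like cells) and lowest in fibroblast/telocyte-like cells (217.2 ± 14.0 CPM, overlapping with Cd74-high Ccr2+ Clec10a+ cells). With acupuncture it was highest in macrophage-like cells (2160 ± 323 CPM), followed by fibroblast/telocyte-like cells (1842 ± 67.2 CPM), and the ranges of these classes did not overlap. T cell-like and NK or innate lymphoid cell-like cells, which overlapped, were then at the lower end, at 670.4 ± 163 and 685.3 ± 79.7 CPM.
NR4A order moved less. In both groups Nr4a1 was highest in NK or innate lymphoid cell-like cells, at 1128 ± 87.0 CPM with acupuncture and 1348 ± 163 CPM without, and T cell-like cells came next in both. Nr4a2 was highest in the NK or innate lymphoid cell-like class without acupuncture (472.4 ± 101 CPM) and in the Cd74-high Ccr2+ Clec10a+ class with it (790.9 ± 130 CPM). Nr4a3 was at 190.1 ± 6.80, 173.2 ± 39.3 and 172.9 ± 19.1 CPM with acupuncture in the T cell-like, NK or innate lymphoid cell-like and Cd74-high Ccr2+ Clec10a+ classes, whose ranges overlapped, and the other 4 classes lay below 50 CPM. Egr2 was highest with acupuncture in Cd74-high Ccr2+ Clec10a+ cells (55.1 ± 3.31 CPM), above fibroblast/telocyte-like cells (33.8 ± 3.20 CPM) and without overlap.

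The share of cells with at least 1 UMI was compared after each cell had been thinned to 2000 UMIs, leaving out shallower cells. In fibroblast/telocyte-like cells Egr1 was found in 47.8% and 62.8% of cells with acupuncture and in 23.5% and 24.4% without. The 95% Clopper-Pearson intervals, which cover counting error only, were 46.1% to 49.5% and 61.1% to 64.5% against 21.8% to 25.2% and 23.3% to 25.6%. In macrophage-like cells the Egr1 shares were 71.3% and 89.5% against 41.3% and 20.8%. In the Cd74-high Ccr2+ Clec10a+ class Nr4a2 was found in 50.4% and 61.3% of cells against 14.96% and 7.71%, and Nr4a3 in 20.5% and 23.9% against 4.55% and 1.46%. In T cell-like cells Nr4a1 was found in 61.0% and 54.5% against 37.2% and 28.8%. In each of these the acupuncture libraries lay above the dysentery libraries, and with 2 libraries per group no exact permutation test of shares can reach the threshold. The share of all genes with such a separation was not computed. Other pairs of member and class went the other way. The mean Egr1 share was 44.5 ± 2.2% with acupuncture against 51.3 ± 9.0% (SD) in T cell-like cells. In NK or innate lymphoid cell-like cells it was 44.1 ± 4.2% against 59.2 ± 14.0%. Without thinning the shares were 56.3% and 69.0% against 43.3% and 44.4% for Egr1 in fibroblast/telocyte-like cells, and 70.6% and 83.2% against 28.9% and 18.0% for Nr4a2 in Cd74-high Ccr2+ Clec10a+ cells. Thinning kept 3396 of 3768 and 3216 of 3560 fibroblast/telocyte-like cells with acupuncture, and 2348 of 2558 and 5442 of 5814 without. NK or innate lymphoid cell-like cells had Nr4a1 in 71.8 ± 8.4% of thinned cells (mean ± SD) with acupuncture against 61.5 ± 8.5%. Nr4a2 was in 43.3 ± 7.9% against 35.4 ± 7.0%, and Nr4a3 in 26.2 ± 3.8% against 22.2 ± 6.0%. Without thinning Nr4a1 was in 84.9 ± 1.4% against 69.7 ± 9.3%. Thinned to 1000 UMIs, Nr4a3 was in 10.6 ± 8.4% against 13.2 ± 1.6%. At 2000 UMIs the mean NR4A shares were thus higher with acupuncture, while their mean CPM was lower. As a comparison for free RNA, Nr4a3 was found in 2.15% and 5.01% of fibroblast/telocyte-like cells with acupuncture and in 1.62% and 1.95% without, while NK or innate lymphoid cell-like cells of the same libraries had 23.5% and 28.9% and 26.5% and 18.0%. This comparison covers Nr4a3 only, and free RNA of the other members was not estimated.

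**Figure D3:**
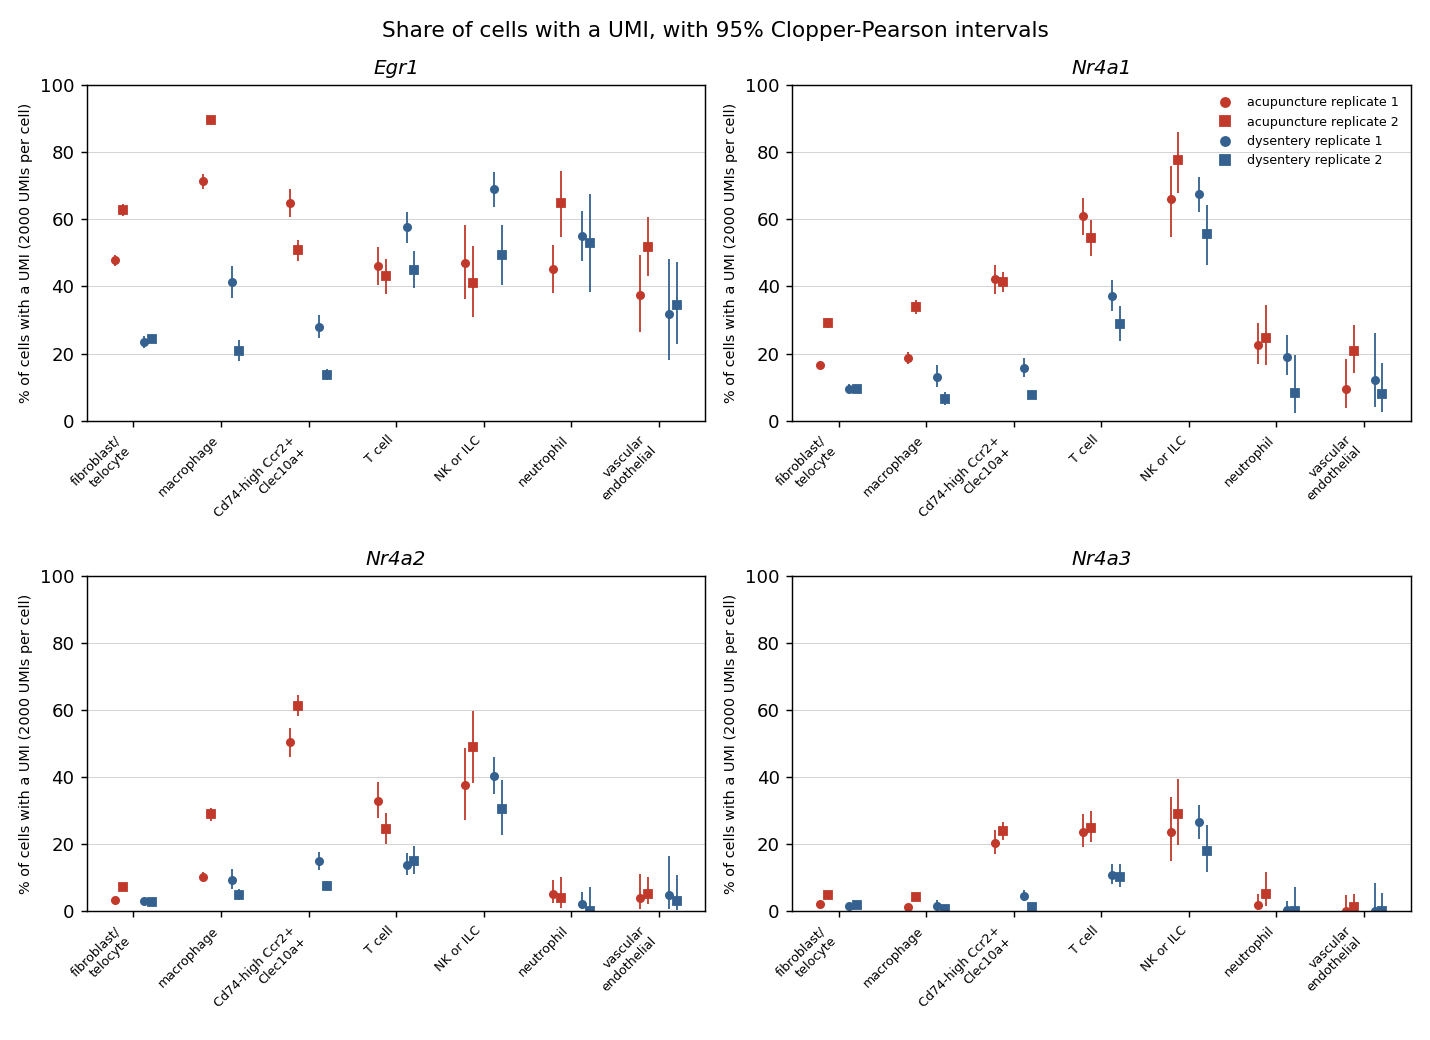
Percent of cells with a UMI of Egr1, Nr4a1, Nr4a2 or Nr4a3 (y axis) after thinning to 2000 UMIs per cell, by class (x axis) and library (colours and symbols by group and replicate), with bars for the 95% Clopper-Pearson interval. Egr1 was found in 89.5% of macrophage-like cells of acupuncture replicate 2 and in 13.6% of Cd74-high Ccr2+ Clec10a+ cells of dysentery replicate 2, and the T cell-like class shows separate groups for the 3 NR4A genes. The share of all genes with separate groups was not computed.

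The families were also counted in the same cells. In T cell-like cells an NR4A UMI was found in 67.3% and 67.4% of thinned cells with acupuncture and in 42.8% and 35.9% without, while an EGR UMI was found in 47.3% and 44.1% against 58.3% and 46.2%. Among T cell-like cells with an NR4A UMI, 59.4% and 55.4% also had an EGR UMI with acupuncture, against 77.9% and 76.5% without. The same share in fibroblast/telocyte-like cells was 85.8% and 90.3% with acupuncture and 45.6% and 42.1% without. Among cells without an NR4A UMI the share with an EGR UMI was 22.3% and 20.7% against 43.7% and 29.3% in T cell-like cells, and 38.9% and 49.4% against 20.4% and 22.03% in fibroblast/telocyte-like cells. With or without an NR4A UMI, the share with acupuncture was thus above both dysentery values in the fibroblast/telocyte-like class and below both in the T cell-like class. These shares are a description of 2 libraries per group and were not tested.

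Leiden clusters were made without the members, the other immediate early genes and the heat shock genes. In the fibroblast/telocyte-like, macrophage-like and Cd74-high Ccr2+ Clec10a+ classes different clusters held much of the class in the 2 groups, while neutrophil-like and vascular endothelial-like cells had 1 main cluster each and T cell-like cells lay mainly in cluster 19 in all 4 libraries. Cluster 10, of fibroblast/telocyte-like cells, had 1095 and 1321 cells with acupuncture and 8 and 19 without, and cluster 8, of the same class, had 33 and 12 against 329 and 2888. Egr1 was at 3592 and 2728 CPM in cluster 10 with acupuncture, and at 252.8 and 219.4 CPM in cluster 8 with dysentery. Nr4a1 was at 466.5 and 612.3 CPM in cluster 10 and at 69.1 and 57.1 CPM in cluster 8. The values above for these 3 classes therefore compare, in large part, different clusters.
Within single clusters that had at least 100 cells in every library, a choice made after the data were seen, the changes in fibroblast/telocyte-like cells were smaller. Egr1 had a log2 change of 1.90 ± 0.39 in cluster 13, 1.501 ± 0.262 in cluster 6, 0.91 ± 0.34 in cluster 9 and 0.16 ± 0.20 in cluster 4, and none passed (edgeR adjusted p = 0.0736, 0.0600, 0.283 and 0.779). Nr4a1 had log2 changes of 1.23, 0.14, -0.45 and -0.30 in these clusters. Clusters 5 and 7 of this class had at least 30 cells in every library but under 100 in some, and were not fitted. Egr1 was at 279.0 and 577.7 CPM with acupuncture and at 139.5 and 171.0 CPM without in cluster 5. In cluster 7 it was at 947.8 and 1168 CPM against 131.9 and 179.3 CPM. Nr4a1 was at 18.3 and 65.9 CPM against 44.1 and 52.0 CPM in cluster 5. In cluster 7 it was at 130.9 and 247.0 CPM against 36.6 and 56.8 CPM.

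Among macrophage-like cells cluster 1 had 930 and 1603 cells with acupuncture and 4 and 19 without, with Egr1 at 2707 and 2472 CPM. Cluster 3 had 695 and 183 cells against 230 and 535, and there Egr1 was at 595.4 and 788.9 CPM with acupuncture and 124.2 and 127.2 CPM without. In cluster 3 Egr1 rose by a log2 change of 2.58 ± 0.14 (edgeR adjusted p = 3.05e-09), and Nr4a1 rose from 24.6 and 23.6 CPM to 32.5 and 69.9 CPM (log2 change 1.05 ± 0.27, edgeR adjusted p = 0.0225). Nr4a2 had a log2 change of 1.01 ± 0.30 in cluster 3 (edgeR adjusted p = 0.0506). The dysentery libraries thus lay close together for Egr1 in cluster 3, unlike in the whole class. Cluster 18, also mostly of macrophage-like cells, had 38 and 47 cells with acupuncture and 212 and 234 without. Cluster 33, of the same class, had 10 and 3 against 117 and 3. The part of these clusters in the Egr1 gap between dysentery libraries was not tested.

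Cluster 15, of Cd74-high Ccr2+ Clec10a+ cells, had 464 and 968 cells with acupuncture and 121 and 118 without, and cluster 17, of the same class, had 60 and 40 against 292 and 1299. Nr4a2 was at 831.0 and 977.8 CPM in cluster 15 with acupuncture and at 671.4 and 814.5 CPM there without it, and at 36.6, 33.9, 8.43 and 21.005 CPM in cluster 17 in the same order of libraries. Within cluster 15 edgeR called 0 of 6 members, with 1 at an unadjusted p under 0.05, and the log2 changes were 0.30 ± 0.15 for Nr4a2, 0.13 ± 0.20 for Nr4a3 and -0.47 ± 0.15 for Nr4a1. Nr4a2 was thus high in cluster 15 and low in cluster 17 in all 4 libraries, and the 2 groups filled these clusters unequally. The part of this in the Nr4a2 change of the class was not tested. Cells of cluster 15 had a median of 12150.0 UMIs, against 8792 in cluster 17.

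Cluster 19, of T cell-like cells, had 262 to 424 cells per library, and Nr4a3 rose there from 95.8 and 95.8 CPM to 216.2 and 186.7 CPM (log2 change 1.06 ± 0.14, edgeR adjusted p = 0.00965). Nr4a2 had a log2 change of 0.91 ± 0.19 (edgeR adjusted p = 0.0645) and Nr4a1 of 0.54 ± 0.17 (0.211). Cluster 21 was given no name, as most of its cells joined no class. In it Nr4a1 rose from 343.2 and 246.1 CPM to 595.3 and 782.8 CPM (log2 change 1.28 ± 0.20, edgeR adjusted p = 0.00852) and Nr4a2 from 28.2 and 60.1 CPM to 116.7 and 99.3 CPM (log2 change 1.37 ± 0.30, edgeR adjusted p = 0.0451), while Egr1 was at 445.5 and 384.9 CPM against 754.7 and 469.0 CPM and was not called.

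**Figure D4:**
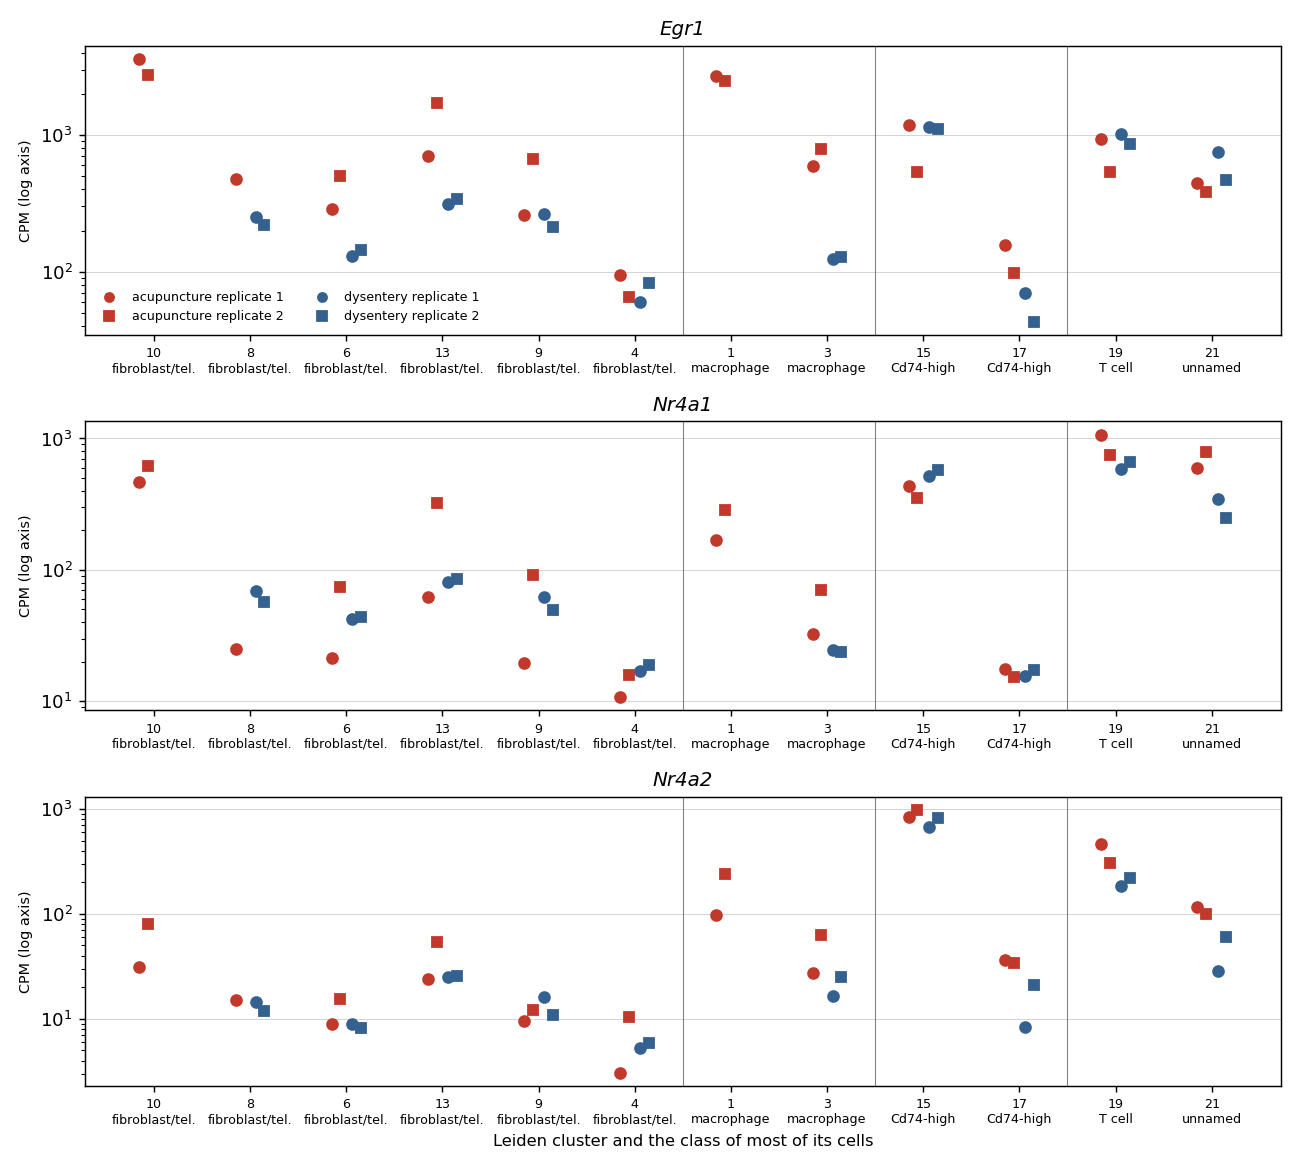
CPM of Egr1, Nr4a1 and Nr4a2 (y axis, log scale) in 12 Leiden clusters (x axis, with the class of most of their cells), a point per library with at least 30 cells in the cluster, coloured by group and shaped by replicate. Nr4a2 lies between 671.4 and 977.8 CPM in all 4 libraries of cluster 15, and Egr1 in macrophage-like cluster 3 lies at 595.4 and 788.9 CPM with acupuncture against 124.2 and 127.2 CPM.

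The genes around the 2 families were taken from 5 lists. Of the EGR list (corepressors, upstream factors and known targets) 1 of 16 tested genes was called in fibroblast/telocyte-like cells: Icam1, a leukocyte adhesion molecule, rose by a log2 change of 1.78 ± 0.22 (edgeR adjusted p = 0.0428). In Cd74-high Ccr2+ Clec10a+ cells 3 of 16 rose: Icam1 (log2 change 2.48 ± 0.20), Plau, the urokinase (1.41 ± 0.22), and Nab2, the EGR corepressor (0.67 ± 0.13). In vascular endothelial-like cells 1 of 12 rose, Nab2 again, from 0 and 5.77 CPM to 33.6 and 32.2 CPM. The dysentery values, from 47 and 72 cells, were near the lower limit. In T cell-like, macrophage-like, NK or innate lymphoid cell-like and neutrophil-like cells edgeR called 0 of 13, 16, 11 and 9, with 2, 5, 1 and 0 at an unadjusted p under 0.05 and 0, 2, 0 and 0 called by DESeq2. In the 3 classes with calls, median log2 changes of this list were 0.33, 0.19 and 0.20, against -0.0029, -0.0079 and -0.0045 over all genes. Over all genes 0.885%, 7.16% and 1.14% were called higher in these classes.

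Of the NR4A list (retinoid X receptor partners, CREB, its coactivators, MEF2 and cAMP regulators) 4 of 15 tested genes rose in Cd74-high Ccr2+ Clec10a+ cells, 3 of 11 in T cell-like cells and 2 of 9 in NK or innate lymphoid cell-like cells. Over all genes 7.16%, 2.01% and 0.823% were called higher in these classes, and the list's median log2 changes were 0.42, 0.34 and -0.039. None was called lower in those 3 classes. Crem, a cAMP-responsive modulator, rose in all 3. It went from 46.0 and 29.2 CPM to 203.4 and 232.1 CPM in Cd74-high Ccr2+ Clec10a+ cells (log2 change 2.58 ± 0.21, edgeR adjusted p = 0.00174). In T cell-like cells it went from 75.8 and 65.2 CPM to 253.6 and 277.9 CPM (1.92 ± 0.14, edgeR adjusted p = 0.000244). In NK or innate lymphoid cell-like cells, where no member was called, it still went from 123.3 and 168.8 CPM to 425.6 and 455.6 CPM (1.57 ± 0.18, edgeR adjusted p = 0.00267). Sik1, a kinase induced by cAMP, rose in the first 2 of these classes (log2 changes 1.26 ± 0.13 and 1.16 ± 0.14), as did the phosphodiesterase Pde4b (1.17 ± 0.25 and 0.89 ± 0.19). Pde4d rose in the NK or innate lymphoid cell-like class (2.68 ± 0.53), from 6.60 and 1.32 CPM to 41.3 and 25.8 CPM. Its dysentery values were near the lower limit. For this list edgeR called 0 of 18 in fibroblast/telocyte-like cells, with 4 at an unadjusted p under 0.05 and 2 called by DESeq2. In macrophage-like, vascular endothelial-like and neutrophil-like cells it called 0 of 16, 11 and 7, with 4, 0 and 0 at an unadjusted p under 0.05 and 2, 0 and 0 by DESeq2. In fibroblast/telocyte-like cells Creb1 had a log2 change of -0.19 ± 0.15 and Crem of 0.94 ± 0.15 (edgeR adjusted p = 0.543 and 0.0714).

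Other immediate early genes were called in 6 classes: 23 of 29 rose in Cd74-high Ccr2+ Clec10a+ cells, 13 of 27 in T cell-like, 12 of 29 in fibroblast/telocyte-like, 3 of 25 in vascular endothelial-like, 2 of 28 in macrophage-like and 2 of 24 in NK or innate lymphoid cell-like cells, and none was called lower in these 6. Over all genes 7.16%, 2.01%, 0.885%, 1.14%, 0.357% and 0.823% were called higher in the same order. In fibroblast/telocyte-like cells Atf3 (log2 change 3.89 ± 0.31), Csrnp1 (3.18 ± 0.24), Jun (2.54 ± 0.17) and the matrix protein gene Ccn1 (2.19 ± 0.18) rose, and in T cell-like cells Atf3 (2.44 ± 0.13), Maff (1.88 ± 0.34), Fosl2 (1.73 ± 0.20) and the phosphatase gene Dusp5 (1.49 ± 0.14) rose. In macrophage-like cells Junb (1.87 ± 0.23) and Fosb (1.52 ± 0.16) rose. The median log2 change of this list was 2.10, 0.72, 1.66, 0.54, 1.19 and 0.031 in the 6 classes in the order given, and -0.24 in neutrophil-like cells, where edgeR called 0 of 24 (8 at an unadjusted p under 0.05, 0 by DESeq2).

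Heat shock genes, which mark protein stress and also respond to warm digestion, rose beside the members in 3 classes: 10 of 11 in Cd74-high Ccr2+ Clec10a+ cells, 5 of 11 in fibroblast/telocyte-like cells and 1 of 11 in T cell-like cells. Over all genes 7.16%, 0.885% and 2.01% were called higher there, and the list's median log2 changes were 1.32, 1.27 and 0.29. Hsp90aa1, a chaperone, went from 365.8 and 324.8 CPM to 928.4 and 952.8 CPM in fibroblast/telocyte-like cells. In the other 4 classes edgeR called 0, with 2 to 4 genes at an unadjusted p under 0.05 and at most 1 by DESeq2. The part of a shared stress response in the members' changes was not tested. Of the T cell activation genes 2 of 11 rose in T cell-like cells, the early activation marker Cd69 (log2 change 0.89 ± 0.11) and the interleukin-2 receptor gene Il2ra (1.46 ± 0.28). Over all genes 2.01% were called higher in that class, and the list's median log2 change was 0.72.

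Likeness of pattern was measured as Pearson's r of log2(CPM + 1) over 28 sums (7 classes in 4 libraries) among 2972 genes tested in every class, with the members. The sums share libraries and classes, so r is a description. For Egr1 the closest genes included Jun (r = 0.87), Ccnl1 (0.80), Gadd45b (0.71) and Pcf11 (0.70). For Nr4a1 they were Spty2d1 (r = 0.89), Nr4a3 (0.86), Ing1 (0.86), Gpbp1 (0.85) and Ube2s (0.84). For Nr4a2 they were Tp53rk (0.91), Rcor1 (0.90), Dnaaf2 (0.89), Sf1 (0.88) and Lsm12 (0.87), and for Nr4a3 Eif4e2 (0.87), Nr4a1 (0.86), a gene with an identifier only (0.85), Bhlhe40 (0.85) and Gpbp1 (0.84). For Egr2 they were Lsm12 (0.79), Eif4a1 (0.77), Ptbp1 (0.76), Hspa8 (0.76) and Slc7a6os (0.75), and for Egr3, which has few UMIs, Actg1 (0.80), Macir (0.75), Hiatl3 (0.72), Klhl2 (0.71) and Ripk3 (0.71). Among the members, r was 0.70 to 0.86 between NR4A genes and 0.090 to 0.43 between EGR genes, and between the families it ran from 0.14 (Egr3 with Nr4a2) to 0.75 (Egr2 with Nr4a2).

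Classes with under 30 cells in a library were not tested. Mast cell-like cells, 14 and 60 with acupuncture and 7 and 12 without, had Egr1 at 3935 and 4142 CPM against 1034 and 483.4 CPM, and Egr2 at 178.0 and 430.2 CPM against 0 and 53.7 CPM. Dendritic cell-like cells, 15 and 52 against 54 and 45, had Nr4a2 at 814.1 and 1325 CPM against 143.2 and 162.9 CPM and Nr4a3 at 139.9 and 227.5 CPM against 19.2 and 41.6 CPM. In both classes all values named with acupuncture lay above those without. The share of all genes with that pattern was not computed in these 2 classes. In the tested classes it was 13.3% to 28.9%, and the genes named here were chosen after their values were seen. Monocyte-like cells, 21 to 54 per library, had Egr1 at 1168 and 226.6 CPM against 1148 and 950.8 CPM, with overlap, and Nr4a3 at 74.7 and 68.3 CPM against 21.98 and 28.1 CPM. Epithelial-like cells had 0 UMIs of Egr3 in all 4 libraries.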

How the data were processed

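The authors deposited raw UMI counts per gene and cell for 4 libraries, and barcode and feature files that hold other content, the names of cells and genes. Per the submitters' processing notes, Cell Ranger 6.0.1 and STAR were used, and mRatBN7.2 and GRCh38.p13 are listed as builds with no role given. Groups follow the library titles. The members and gene lists were chosen with earlier results of these data known.

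Cells with at least 300 genes, 500 UMIs and at most 20% mitochondrial UMIs (13 genes) were kept, and the highest Scrublet scores (scanpy 1.11.5) were removed at 0.8% per 1000 cells. Cells were gated by markers, with thresholds set after seeing marker counts. For the added class, Cd74 had to reach 1% of UMIs. No class was given to 2825 cells that passed no gate and 896 that passed more than 1.

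Counts were summed per class and library and tested with edgeR 4.0.16 (quasi-likelihood, TMM, filterByExpr at a minimum count of 10, Benjamini-Hochberg at 0.05). The procedure was also run on simulated counts with a fixed spread between libraries. That spread may differ from the one in these data, so the run does not give the error rate here. Alternatives were DESeq2 1.42.0, RLE scaling, no filter, a replicate block, leaving out each library, other cell limits and gates, and Leiden clusters (igraph 0.11.9, resolution 1). Named list genes are the up to 4 largest called changes per list and class. Other named list genes, clusters and small classes were chosen after their values were seen. Replicate numbers share no stated animal or batch and, with 2 per group, pair nothing. Depth was 53066666 to 93897006 UMIs per library. Intervals cover counting error only. A gene of the pattern comparison is not reported here.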

Additional observations from a re-analysis of the deposited data

Results flagged for a closer look

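Changes that differed from those in fibroblast/telocyte-like cells, by a test of the difference itself in edgeR, are collected here as log2 differences. In NK or innate lymphoid cell-like cells they were -3.87 for Egr1, -4.34 for Egr2, -2.65 for Nr4a1 and -1.91 for Nr4a3, of which Nr4a3 lost its call under the stricter gate (adjusted p = 0.187) and with doublets kept (0.0522). In T cell-like cells they were -3.24 for Egr1 and -3.48 for Egr2, in neutrophil-like cells -2.96 for Egr1, and in Cd74-high Ccr2+ Clec10a+ cells -2.24 for Egr2. Each of these 8 kept its direction in every alternative run. Egr1 in NK or innate lymphoid cell-like cells also kept its call in all of them. Without acupuncture replicate 2 the other 7 lost theirs, 4 did so without acupuncture replicate 1 and 1 without dysentery replicate 2. Groups of 2 libraries are too small for a check of single outlying samples.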

How the results depend on the processing

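Of the alternatives for single members' log2 changes, 371 kept direction and call, 37 gained a call, 19 lost it and 23 changed sign. Changes named above that kept their call in every alternative but the single clusters were Nr4a1 and Nr4a2 in T cell-like cells and Nr4a1, Nr4a2 and Nr4a3 in Cd74-high Ccr2+ Clec10a+ cells. Nr4a3 in T cell-like cells kept it in the single cluster too.

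Without the filter on low counts edgeR called 6 members in macrophage-like, 2 in NK or innate lymphoid cell-like and 1 in neutrophil-like cells, 19 differences from fibroblast/telocyte-like cells and 185 list genes (87 in the main fit, summed over the classes). Genes called were then 511 in fibroblast/telocyte-like, 1300 in macrophage-like, 2199 in Cd74-high Ccr2+ Clec10a+, 686 in T cell-like, 389 in NK or innate lymphoid cell-like, 76 in neutrophil-like and 211 in vascular endothelial-like cells (137, 64, 1042, 223, 96, 16 and 95 in the main fit). The cause was not tested. DESeq2 called 748, 376, 143, 47 and 41 genes in fibroblast/telocyte-like, macrophage-like, T cell-like, NK or innate lymphoid cell-like and vascular endothelial-like cells. The stricter gate called 313, 257, 169, 3 and 26 genes in fibroblast/telocyte-like, macrophage-like, NK or innate lymphoid cell-like, neutrophil-like and vascular endothelial-like cells, and 1 member, Nr4a1, in macrophage-like cells. Leiden clusters in place of gates gave 326, 146, 147 and 2 genes in the first 4 of these. The 10% mitochondrial limit gave 28 genes in macrophage-like and 22 in NK or innate lymphoid cell-like cells, and keeping doublets gave 42 in macrophage-like and 43 in vascular endothelial-like cells, with 0 members in the latter.

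With the replicate number as a block, 1 member was called in fibroblast/telocyte-like cells (Egr2 then had an adjusted p of 0.103) and 1 in neutrophil-like cells, and genes called were 40, 1, 486, 609, 50, 88 and 312 in the order of classes of the filter. The correlation of same-numbered deviations was -0.14 to 0.18 over the classes, so the numbers were not taken as pairs. Crossed replicate blocks, an alternative added after seeing the data for the 2 classes under -0.1, gave 282 genes and 4 members in macrophage-like cells.

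Leaving out each library (the lone library is then assumed to vary like the other group) gave 0 to 3 members in fibroblast/telocyte-like, 0 to 2 in macrophage-like, 3 to 5 in Cd74-high Ccr2+ Clec10a+, 0 to 2 in NK or innate lymphoid cell-like and 0 to 1 in neutrophil-like cells. Genes called ranged over 0 to 447, 0 to 513, 507 to 1023, 185 to 605, 173 to 289, 13 to 189 and 136 to 191 in the same order of classes. List genes ranged from 80 to 137, and differences from fibroblast/telocyte-like cells from 3 to 13.

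Signs turned for uncalled members. With each library left out, Nr4a3 ranged from -0.029 (without acupuncture replicate 2) to 1.18 in macrophage-like cells. Egr1 ranged from -0.44 to 0.050 in T cell-like cells, where it was positive without acupuncture replicate 2 and, at 0.032, without dysentery replicate 1. Nr4a2 ranged from -0.32 to 0.091 in NK or innate lymphoid cell-like and from -0.57 to 0.32 in vascular endothelial-like cells, positive without dysentery replicate 1. Egr1 ranged from -0.37 to 0.24 in neutrophil-like cells. In NK or innate lymphoid cell-like cells Nr4a2 and Nr4a3 were 0.070 and 0.088 under the stricter gate and 0.014 and 0.015 with Leiden clusters. Egr1 in neutrophil-like cells was 0.058 without the filter, 0.24 without acupuncture replicate 1, 0.0057 with doublets kept, 0.085 under the stricter gate and 0.020 with Leiden clusters. Nr4a2 in vascular endothelial-like cells was 0.31 under the stricter gate and 0.22 with Leiden clusters. Within cluster 15 of Cd74-high Ccr2+ Clec10a+ cells Egr1, Egr2 and Nr4a1, 2 of them called in the class, were -0.38, -0.22 and -0.47, and in fibroblast/telocyte-like cells Nr4a1 was -0.30 in cluster 4, and Nr4a1, Nr4a2 and Nr4a3 were -0.45, -0.45 and -1.26 in cluster 9. Low counts limit Egr3, and under 100 cells in a library limit the vascular endothelial-like, neutrophil-like and NK or innate lymphoid cell-like classes.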
